A study of Rattus norvegicus with 20 samples.

Results

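Mitochondrial ribosomal proteins were described in sprouting and non-sprouting cortical neurons of aged rats after stroke. A probe counted as a member if its gene name on the array started with Mrpl or Mrps followed by a digit, a suffix for predicted genes being ignored. That gave 56 genes on 65 of the 41012 gene probes, 34 genes named for the large subunit and 22 for the small subunit. The probe with the highest mean signal stood for each gene. All but Mrps10, whose probe had a mean signal of only 103, passed the filter on dim probes, so 55 members (34 large, 21 small) were tested among 30891 features. The rule for members used gene names only and no measured ratio, but it was chosen with earlier results of these data known.

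The rats were 2 years old and formed a day 21 cohort of 5 and a separate day 7 cohort of 5. In every animal a first cholera toxin B tracer (CTb-488) was put into the cortex beside the infarct and a second (CTb-647) at the same site after 21 days or 7 days, and neurons were captured by laser microdissection a week later. The labels call the captured pools sprouting neurons and non-sprouting neurons, about 300 cells each, and give neither strain nor sex; every animal had a stroke, and no uninjured group was used here. Both pools of an animal shared an array in 2 colours and were hybridised again with the dyes exchanged, so each animal gave 1 log2 ratio per gene, positive for a higher signal in sprouting neurons. As these are amplified RNA pools, fewer cells with a transcript and less of it per cell cannot be told apart.

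The mitochondrial ribosome translates the few proteins encoded by mitochondrial DNA, which are core subunits of the respiratory chain and of ATP synthase. Its RNAs come from mitochondrial DNA, whereas its proteins are encoded in the nucleus, made in the cytosol and imported. Part of these proteins descend from bacterial ribosomal proteins and form the conserved core, and part are found only in mitochondrial ribosomes. In neurons, mitochondria supply the ATP for axonal transport and growth. The rule goes by name: Mrps30 and Mrps18a sit in the large subunit in current structures, and the protein named Mrps36 on the array is now Kgd4, a component of the 2-oxoglutarate dehydrogenase complex.

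Arrays varied in quality. The share of gene spots that exceeded background clearly was 69.8% to 95.5% for red and 20.8% to 95.2% for green, by array. Over all features the forward and dye-exchanged ratios of an animal correlated at 0.0535 (day 21 replicate 4) to 0.888 (day 7 replicate 1), and over the members at -0.225 (day 7 replicate 3) to 0.901 (day 21 replicate 5). In day 21 replicate 4 the spots of Mrpl45, Mrpl50, Mrps6 and Mrps9 were marked as outliers, so these genes rest on 4 animals there. No member probe held a saturated spot on any array. All 9 neuron markers passed the filter, and so did all astrocyte, oligodendrocyte and microglia markers (7, 7 and 10).

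No mitochondrial ribosomal protein gene passed the test between sprouting and non-sprouting neurons at either day, with p adjusted over all features. The values leaned the same way at both days, by a small amount: 35 of 55 members had a mean ratio above 0 at day 21 and 40 of 55 at day 7. That is 63.6% and 72.7% of the members, against 49.3% of all features at day 21 and 48.8% at day 7. The median ratio of the members was 0.0287 at day 21 and 0.039 at day 7, beside medians of -0.0011 and -0.002 over all features. Leaving out 1 animal at a time gave 28 to 39 of 55 members above 0 at day 21 and 34 to 45 at day 7. The 28 came without day 21 replicate 4, the animal whose 2 arrays correlated least over all features. The members' day 21 median was then 0.018, beside 0.00447 over all features. The lean also depended on the within-array normalization. An alternative centred each array on its median, with no loess curve. It left 7 of 55 members above 0 at day 21 and 6 of 55 at day 7. Over all features it was 13038 of 30891 and 13131 of 30890. The members' medians were then -0.179 and -0.101, beside -0.0284 and -0.0279 over all features. The share of all features called at an adjusted p under 0.05 was 0% at both days with limma, and 4.77% (day 21) and 6.13% (day 7) had an unadjusted p under 0.05. Among the members 3 had such a p at day 21 and 5 at day 7, all with positive ratios after loess. With median centring 8 members had such a p at day 21 and 3 at day 7, all with negative ratios. Over all features it was then 3156 of 30891 at day 21 and 3104 of 30890 at day 7, of either sign.

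**Figure D1:**
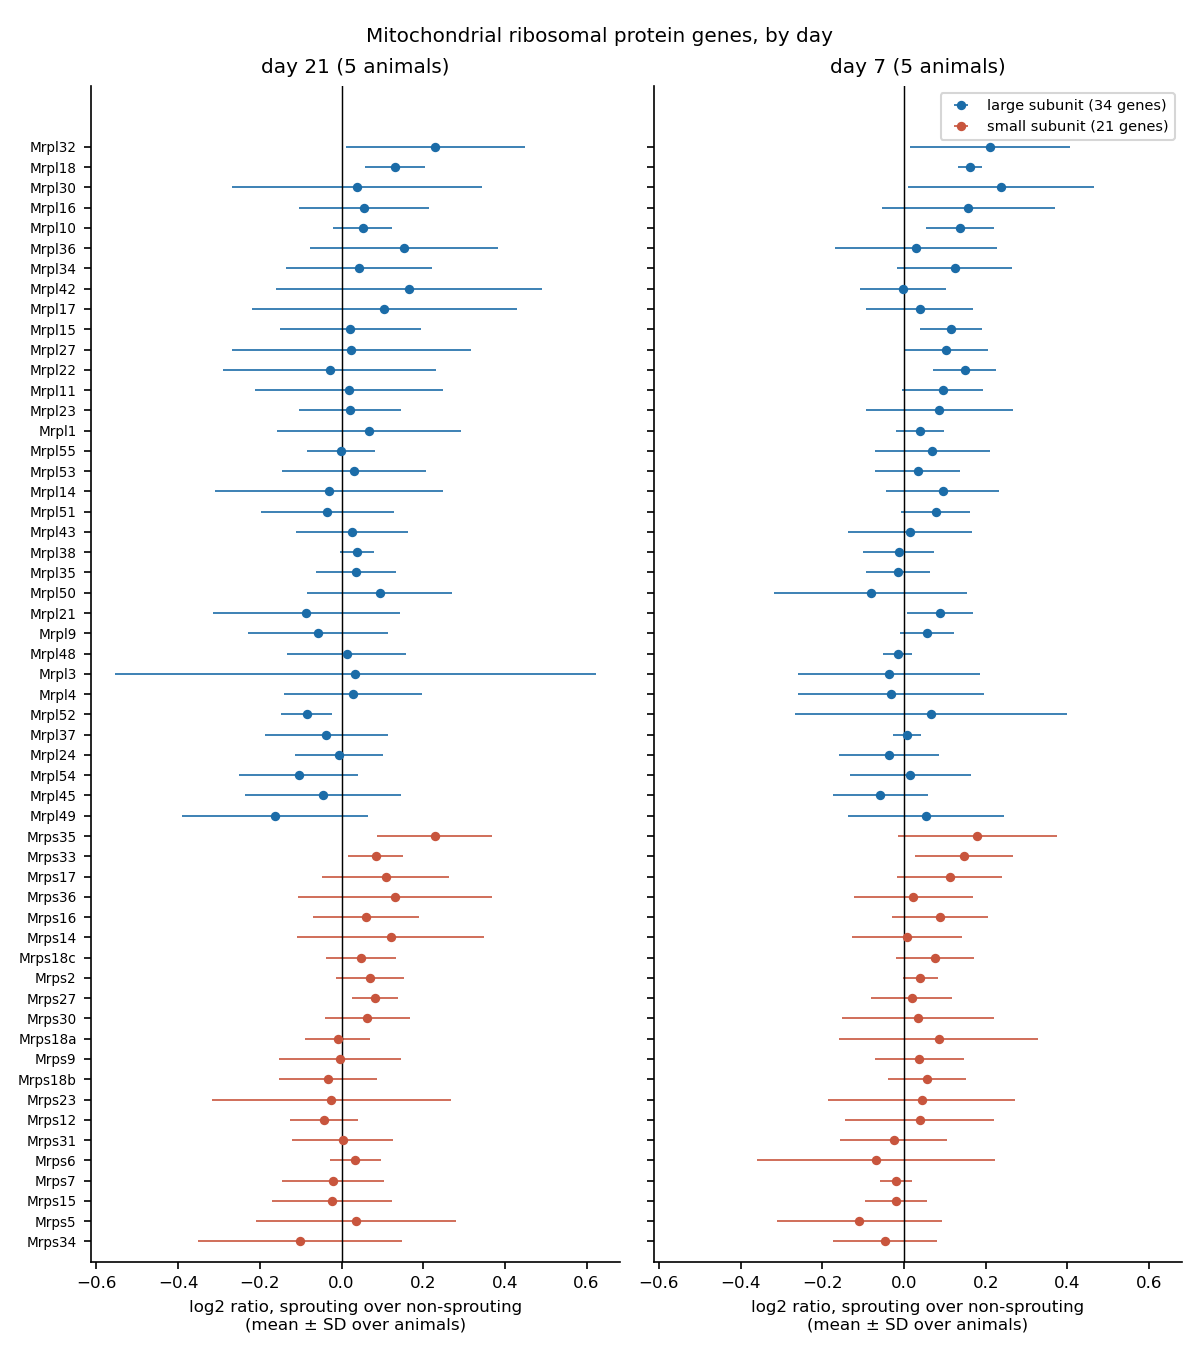
Mean log2 ratio of sprouting over non-sprouting neurons with SD over 5 animals (horizontal axis) for each of the 55 tested members, at day 21 (left) and day 7 (right). Large-subunit genes are above small-subunit genes, each sorted by the mean of both days. After loess Mrpl18 stands clear of 0 by more than its SD at both days (0.131 ± 0.0732 at day 21, 0.162 ± 0.0292 at day 7). So do Mrps33 (0.0835 ± 0.0676 and 0.147 ± 0.12) and, narrowly, Mrpl32 (0.23 ± 0.219 and 0.21 ± 0.196).

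The ratios were therefore set out by signal, in 5 classes of equal size by mean level, an alternative added after seeing the data. Without the loess curve the median ratio over all features was 0.0971 in the dimmest class and -0.185 in the brightest at day 21, and 0.0824 and -0.167 at day 7. The members are bright, with 36 of 55 in the brightest class and 12 in the next. In the brightest class their median without loess was -0.2 at day 21 and -0.129 at day 7, so they lay below features of like signal at day 21 and above them at day 7. After loess the median of these 36 members was 0.0262 at day 21 and 0.0389 at day 7, beside 0.0356 and 0.00195 for all features of that class. In the brightest class the members' median was thus below that of all features at day 21 and above it at day 7 under both settings. In the next class the 12 members had 0.0279 at day 21 and 0.0553 at day 7 after loess, against -0.00211 and -0.00987 for all features, and -0.146 and -0.0911 without loess, against -0.122 and -0.132. The 5 members of class 3 had 0.0382 and 0.0186 after loess, against -0.0134 and -0.00151, so the order of members and all features at day 21 differed between classes.

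**Figure D2:**
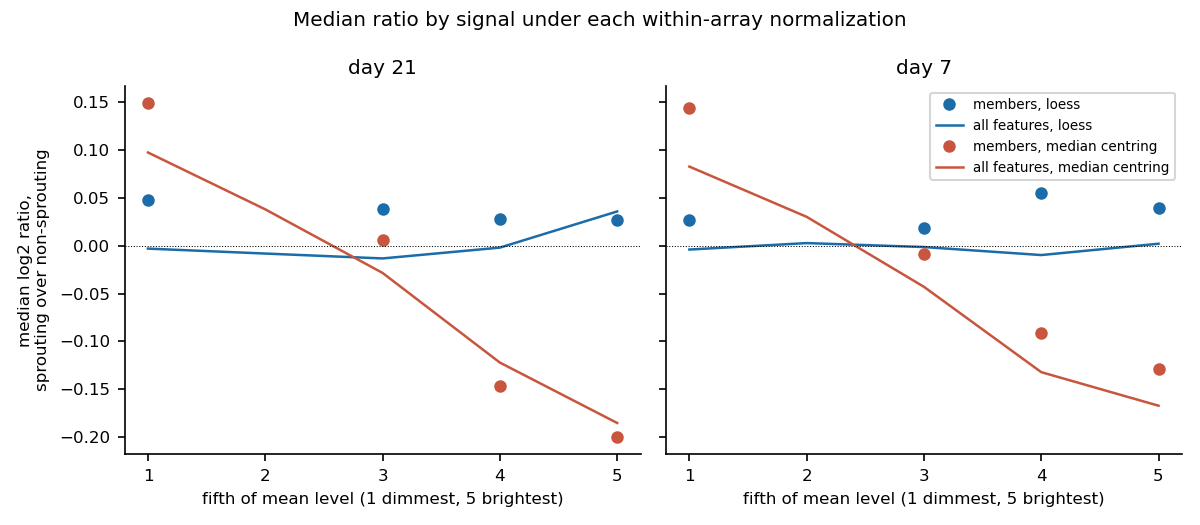
Median log2 ratio of sprouting over non-sprouting neurons (vertical axis) in 5 equal classes of mean level (horizontal axis), for members (points) and all features (lines), after loess (blue) or median centring (red), at day 21 (left) and day 7 (right). Class 2 holds no member, and under median centring the medians of members and of all features are lower in brighter classes.

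In the day 21 cohort 13 of 55 members were above 0 in replicate 1, 32 of 55 in replicate 2, 46 of 55 in replicate 3, 38 of 51 in replicate 4 and 30 of 55 in replicate 5. The day 7 cohort had 41, 42, 34, 31 and 25 of 55 members above 0 in replicates 1 to 5. Replicate 1 at day 21 was the only animal of its cohort with fewer than 30 members above 0. The spread between members also differed, with an SD over genes of 0.0918 in day 21 replicate 1 and 0.322 in day 21 replicate 5, against 0.0737 in day 7 replicate 3 and 0.24 in day 7 replicate 2.

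For the large subunit, the median ratios of the 5 animals at day 21 were -0.055, 0.0388, 0.0788, 0.112 and -0.0429, a mean of 0.0263 ± 0.0735 (SD, n = 5). At day 7 they were 0.117, 0.121, 0.031, 0.00266 and 0.0038, a mean of 0.0551 ± 0.0594 (SD, n = 5). At day 21 3 of 5 animals were above 0, and at day 7 all 5. Small-subunit medians were -0.0618, 0.0299, 0.0803, 0.0922 and 0.0735 at day 21, with a mean of 0.0428 ± 0.063 (SD, n = 5), and 0.0309, 0.117, 0.0173, 0.0302 and -0.0551 at day 7, with a mean of 0.0281 ± 0.0612 (SD, n = 5). The days overlap for both subunits and each mean is smaller than the SD between animals. Without day 21 replicate 4 the large-subunit mean at day 21 was 0.00492, and without day 7 replicate 2 the small-subunit mean at day 7 was 0.00582. With median centring the means were -0.179 (large) and -0.17 (small) at day 21, and -0.082 and -0.121 at day 7. By gene, 22 of 34 large-subunit members were above 0 at day 21 and 25 of 34 at day 7; for the small subunit it was 13 of 21 and 15 of 21.

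**Figure D3:**
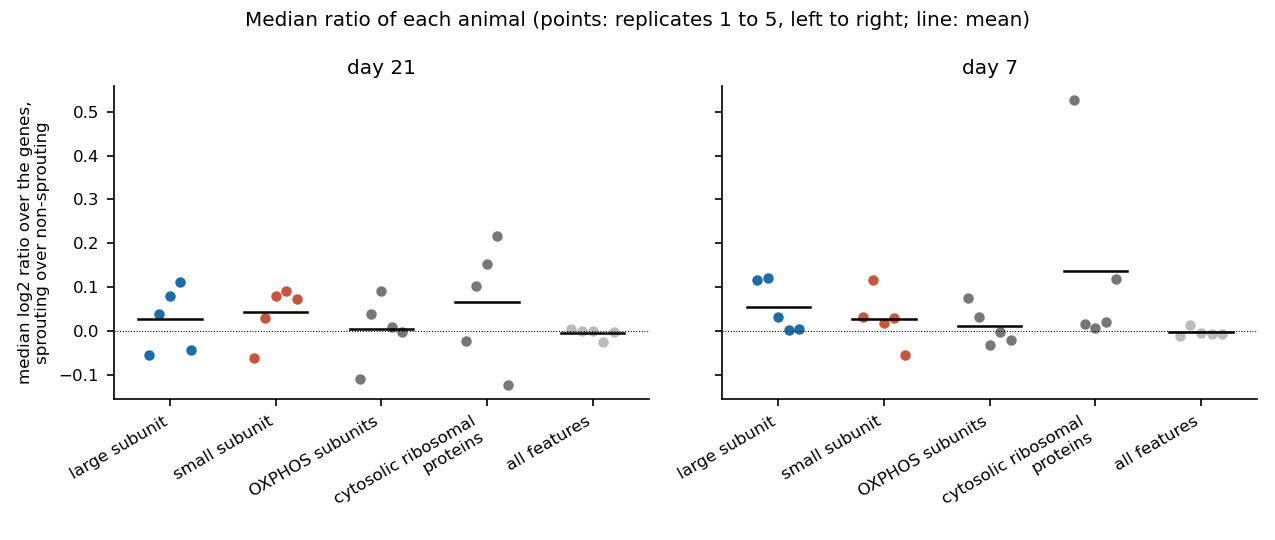
Median log2 ratio of sprouting over non-sprouting neurons in each animal (points) and the mean of 5 animals (lines) for the large and small mitochondrial subunits, oxidative phosphorylation (OXPHOS) subunits, cytosolic ribosomal proteins and all features, at day 21 (left) and day 7 (right). After loess the mitochondrial subunits stay within -0.0618 and 0.121, while cytosolic ribosomal proteins reach 0.526 in day 7 replicate 1. The cytosolic list was taken by gene name and includes some kinases, such as Rps6kb1.

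Within the large subunit, proteins with a bacterial homologue lay above those found only in mitochondria. At day 21 the per-animal medians of the 22 homologues were -0.0476, 0.0421, 0.115, 0.134 and 0.0161, and those of the 12 mitochondria-specific members were -0.064, -0.016, 0.0245, 0.0381 and -0.139. At day 7 the homologues had 0.168, 0.137, 0.035, 0.079 and 0.0707, and the specific members 0.0547, 0.0404, 0.0176, -0.0625 and -0.0421. The homologue median was the higher one in 10 of 10 animals, by 0.0832 ± 0.0511 at day 21 and 0.0964 ± 0.047 at day 7 (SD, n = 5 each). By gene, 16 of 22 homologues were above 0 at day 21 and 18 of 22 at day 7, against 6 of 12 and 7 of 12 specific members. With median centring the order held in 7 of 10 animals, by 0.000898 at day 21 and 0.0731 at day 7. The probes of the homologues were also brighter, which depends on the probe as well as the transcript, with median levels in sprouting neurons of 10.06 at day 21 and 10.33 at day 7 on the log2 intensity scale, against 9.352 and 9.394 for the specific class; the part of signal in this gap was not tested. The small-subunit split is not read, because the list put Mrps18a and Mrps18b, which like Mrps18c descend from bacterial S18, with the mitochondria-specific proteins. As listed, its homologue median was the higher in 4 of 10 animals with loess and in 8 of 10 with median centring.

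Mrpl18, a homologue of bacterial L18 of which human cells also make a cytosolic form under heat stress, had a ratio above 0 in all 10 animals. Its ratios were 0.118, 0.0744, 0.0764, 0.254 and 0.133 at day 21 and 0.16, 0.167, 0.136, 0.209 and 0.139 at day 7. It had the smallest p of all members in the mean of both days, 0.147 ± 0.0237 (SE) with an adjusted p of 0.34 over all features in limma, and the single days gave 0.919 at day 21 and 0.459 at day 7. Its level was 12.99 ± 0.134 in sprouting and 12.86 ± 0.158 in non-sprouting neurons at day 21, and 12.93 ± 0.378 and 12.77 ± 0.38 at day 7 (log2 intensity, SD, n = 5 each). Of the 10 arrays per day, 10 at day 21 and 9 at day 7 were above 0. A dimmer probe of the same gene gave -0.00476 at day 21 and 0.13 at day 7, and median centring turned the ratio to -0.0972 at day 21 and -0.0229 at day 7.

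Mrps35, a small-subunit protein found only in mitochondria, was also above 0 in all 10 animals. Its ratios were 0.0607, 0.128, 0.395, 0.216 and 0.338 in the day 21 animals and 0.00512, 0.482, 0.0287, 0.246 and 0.137 at day 7. The mean was 0.228 ± 0.14 at day 21 and 0.18 ± 0.194 at day 7 (SD, n = 5 each), where replicate 1 was next to 0 and replicate 2 highest, and the day 7 mean was 0.104 without replicate 2. Over both days the ratio was 0.204 ± 0.0505 (SE), with an adjusted p of 0.596. Mrps33, the third member of 1 sign in every animal and likewise specific to mitochondria, gave 0.0359, 0.0478, 0.0721, 0.202 and 0.0594 at day 21 and 0.0607, 0.341, 0.035, 0.151 and 0.148 at day 7. Its mean of both days was 0.115 ± 0.0325 (SE) with an adjusted p of 0.689. Under median centring Mrps35 was near 0, with 0.00489 at day 21 and 0.00794 at day 7, and Mrps33 had -0.143 and -0.0426. A ratio of 1 sign in all 10 animals was seen in 3 of the 51 members measured in all animals, all positive, and in 0.477% of the features so measured.

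Mrpl32, whose precursor is cleaved by a mitochondrial inner-membrane protease in yeast and mouse before it enters the large subunit, had the largest mean over both days after loess. Its ratios were -0.0248, 0.0507, 0.353, 0.262 and 0.512 at day 21 and -0.0191, 0.5, 0.0844, 0.24 and 0.243 at day 7, so replicate 1 was just below 0 in either cohort and the other animals were above it. The mean of both days was 0.22 ± 0.0608 (SE), with an adjusted p of 0.689. With median centring it was 0.0179, and 0.00108 at day 21 and 0.0347 at day 7, while Mrps2 had 0.155. Without day 7 replicate 2 the day 7 ratio was 0.137. Mrpl10, a homologue of the bacterial protein at the base of the stalk that binds translation factors, gave -0.0239, 0.0235, 0.126, 0.133 and 0.00282 at day 21 and 0.256, 0.0743, 0.0425, 0.161 and 0.149 at day 7. The day 7 values are all above 0 and give 0.137 ± 0.0835 (SD, n = 5), with an adjusted p of 0.691, and 0.0569 with median centring. Mrpl30 averaged 0.0378 ± 0.306 at day 21, with replicate 5 at -0.439, and 0.238 ± 0.227 at day 7 (SD, n = 5 each), with replicate 2 at 0.623. The day 7 mean was the largest of all members after loess and was 0.141 without replicate 2, and 0.0664 with median centring.

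**Figure D4:**
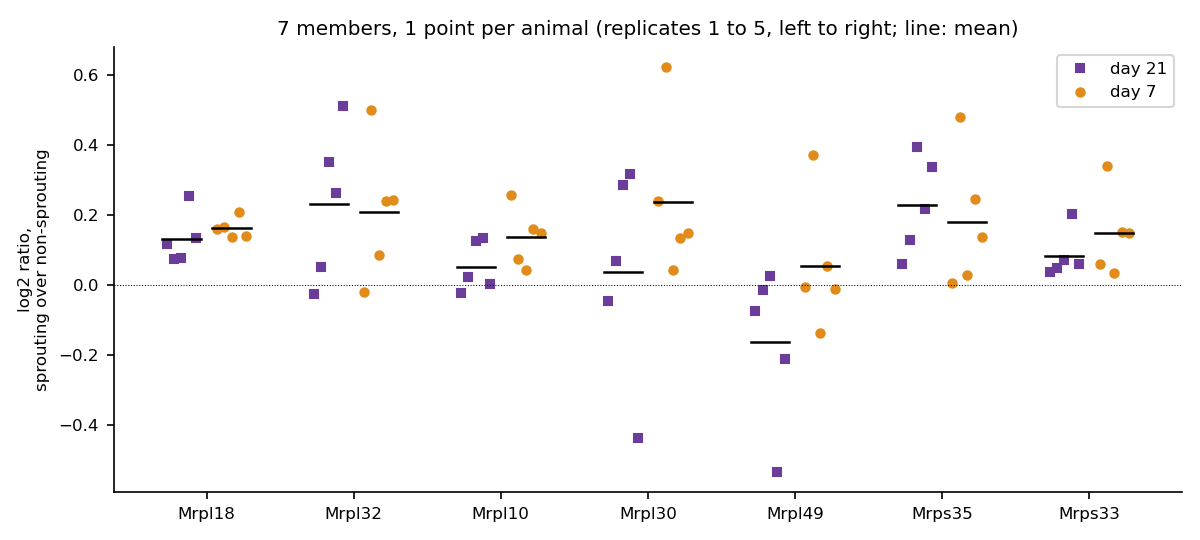
Log2 ratio of sprouting over non-sprouting neurons (vertical axis) in each animal for 7 members, day 21 left of day 7 within each gene, with lines for the mean of 5 animals. After loess Mrpl18, Mrps35 and Mrps33 lie above 0 in all 10 animals, and Mrpl49 spreads from -0.536 to 0.372.

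Further members had 1 sign in all 5 animals of 1 day only. At day 21 Mrps27, a protein with RNA-binding pentatricopeptide repeats, joined the 3 above, and Mrpl52 and Mrpl54 were below 0 in all 5 animals, beside 2.73% of features above and 3.61% below. Mrps27 had 0.0827 ± 0.056 (SD, n = 5) at day 21, but its other probe had -0.0858. Mrpl54 had -0.0608, -0.0162, -0.0333, -0.0486 and -0.364 at day 21, with replicate 5 far from the rest. At day 7 Mrpl10, Mrpl15, Mrpl22, Mrpl27, Mrpl30 and Mrps2 were above 0 in all 5 animals, giving 9 members in all with the 3, and none was below 0 in all 5. Over all features 5.3% were above and 5.85% below 0 in all 5 animals of that day. In all, 8 members had 9 further probes, and 5 of these 9 at day 21 and 4 at day 7 had a ratio of the same sign as the probe that stood for the gene.

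Promoters were read because nuclear genes for mitochondrial proteins in mammals often carry sites for the activators NRF1, GABP (an ETS factor) and YY1, and often share a start region with a gene on the other strand. RefSeq windows of 250 bases before to 50 after the start site (build GRCr8) were found for 46 of 56 members by symbol. The 250 bases before the start site are printed 5′ to 3′ on the coding strand for Mrpl18 and Mrps33, above 0 in every animal after loess, and Mrpl32, with the largest mean after loess; capitals mark every match to the motifs searched.
Mrpl18, chr1:50384702-50384951, plus strand: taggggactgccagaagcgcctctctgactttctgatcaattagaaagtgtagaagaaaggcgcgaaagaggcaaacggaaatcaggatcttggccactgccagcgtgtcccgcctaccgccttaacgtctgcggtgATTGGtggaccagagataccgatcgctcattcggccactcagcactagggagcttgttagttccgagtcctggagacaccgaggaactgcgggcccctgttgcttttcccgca
Mrps33, chr4:69566939-69567188, minus strand: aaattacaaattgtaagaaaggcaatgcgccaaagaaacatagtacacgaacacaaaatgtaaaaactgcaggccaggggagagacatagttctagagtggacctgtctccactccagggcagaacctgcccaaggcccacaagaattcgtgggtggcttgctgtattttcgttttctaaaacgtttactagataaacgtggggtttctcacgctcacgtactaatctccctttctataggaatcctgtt
Mrpl32, chr17:55260401-55260650, plus strand: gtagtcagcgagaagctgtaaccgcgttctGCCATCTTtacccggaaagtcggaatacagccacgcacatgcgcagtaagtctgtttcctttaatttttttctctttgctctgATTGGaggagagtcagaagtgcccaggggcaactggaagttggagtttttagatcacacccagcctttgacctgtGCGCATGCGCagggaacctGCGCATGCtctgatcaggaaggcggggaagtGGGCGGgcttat

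In all, 5 motifs were searched on both strands of the 300 bases: the NRF1 core GCGCATGC, the ETS site CCGGAAG, the YY1 site AAGATGGC, the GC box GGGCGG and the CCAAT box. ETS matches were in 15 of 46 member windows (32.6%), against 8.75% of all 33469 windows, and YY1 matches in 14 of 46 (30.4%), against 3.17%. NRF1 matches were in 4 of 46 (8.7%), against 2.47%, GC boxes in 23 of 46 (50%), against 33.1%, and CCAAT boxes in 18 of 46 (39.1%), against 37.5%. Cytosolic ribosomal protein windows had ETS matches in 29.2% and YY1 matches in 7.69% of 65, and oxidative phosphorylation windows in 29.1% and 21.8% of 55. The cytosolic list was taken by gene name and also holds kinases such as Rps6kb1, which are not ribosomal proteins. The median GC content was 56% in member windows and 51.7% in all windows. In the printed Mrpl32 window 3 NRF1 matches occur, 2 of which overlap on opposite strands, with a YY1 match, a CCAAT box and a GC box; the Mrpl18 window holds 1 CCAAT box on the other strand and the Mrps33 window none of the 5 motifs. No match says only that these letters are not in this window. After loess the 4 tested members with an NRF1 match had median ratios of 0.0381 at day 21 and 0.103 at day 7, against 0.0287 and 0.0389 for the 41 without. The 13 with a YY1 match had 0.0336 and 0.0186, against 0.0262 and 0.0621 for the 32 without. For ETS the 14 with a match had 0.0262 and 0.0453, against 0.0336 and 0.0403 for 31. For the GC box 23 had 0.0358 and 0.0389, against 0.011 and 0.0502 for 22. For the CCAAT box 18 had 0.0349 and 0.036, against 0.0199 and 0.0563 for 27.

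A start site on the opposite strand, pointing away and within 1000 bases, lay beside 12 of the 46 member start sites (26.1%), against 11% of all. The neighbours include Tcp1, a subunit of the cytosolic chaperonin, 425 bases from Mrpl18; Psma2, a proteasome subunit, 210 bases from Mrpl32; and Fau, whose product is split into a ubiquitin-like protein and a cytosolic ribosomal protein, 186 bases from Mrpl49. For 8 pairs both genes were measured, and in 5 of 8 the ratios had 1 sign at day 21 and again in 5 of 8 at day 7. Mrpl18 had 0.131 at day 21 and 0.162 at day 7, beside -0.0235 and -0.0432 for Tcp1. Mrpl32 had 0.23 and 0.21, beside 0.158 and 0.00834 for Psma2.

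The remaining members of small p had wide spreads. Mrps17, a homologue of bacterial S17, averaged 0.108 ± 0.155 at day 21 and 0.112 ± 0.128 at day 7 (SD, n = 5 each), and its mean of both days was 0.11 ± 0.0435 (SE). Mrpl16, a homologue of bacterial L16, averaged 0.0543 ± 0.159 and 0.158 ± 0.211, with replicate 2 at 0.499 on day 7. Mrpl36 averaged 0.153 ± 0.231 and Mrpl42 0.165 ± 0.326 at day 21; without day 21 replicate 5 these were 0.0614 and 0.0241. Mrps18c averaged 0.0478 ± 0.0867 at day 21 and 0.0752 ± 0.0957 at day 7. None of these means exceeds the spread between animals, and with median centring Mrpl36 and Mrpl42 were below 0 at day 21 and Mrps17, Mrpl16 and Mrps18c at day 7.

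The ratio was then compared between the days, which asks whether the cell types differ more at one time than at the other. With all 10 animals, no member had an unadjusted p under 0.05 for day 21 minus day 7, against 4.15% of all features, and no feature passed adjustment (0%) in limma. Mrpl49, a large-subunit protein specific to mitochondria, had the smallest p of the members, with -0.0753, -0.0157, 0.025, -0.536 and -0.213 at day 21 and -0.00575, 0.372, -0.138, 0.0544 and -0.0106 at day 7. The cohorts overlap, and the difference was -0.217 ± 0.122 (SE), adjusted p = 0.922. It was -0.124 without day 21 replicate 4 and -0.085 with no background correction. Mrpl22, a homologue of bacterial L22 at the exit tunnel, spread from -0.338 to 0.271 at day 21. It lay above 0 in all 5 animals at day 7 (0.0981 to 0.284). The difference was -0.178 ± 0.113 (SE), adjusted p = 0.922 in limma. It was -0.101 without day 21 replicate 1 and -0.441 within the shared scan date, where that replicate is the only day 21 animal. Mrpl21, a homologue of bacterial L21, averaged -0.0864 ± 0.229 at day 21 and 0.0882 ± 0.081 at day 7 (SD, n = 5 each), a difference of -0.175 that was -0.0907 without day 21 replicate 5 and -0.0128 within the shared scan date. The other members of small p were Mrpl9 (-0.114), Mrpl10 (-0.0845), Mrps18b (-0.0897), Mrps5 (0.146), Mrps14 (0.112) and Mrps27 (0.0641), all with an adjusted p of 0.922. Without day 21 replicate 5 the differences of Mrpl9 and Mrps14 were -0.0674 and 0.0352, and without day 7 replicate 2 that of Mrps5 was 0.0701. Within the shared scan date Mrps14 turned to -0.00276 and Mrps5 was 0.0381. For the difference, 23 of 55 members were above 0, 14 of 34 for the large and 9 of 21 for the small subunit. Within the 1 scan date that held animals of both cohorts (1 at day 21, replicate 1, and 2 at day 7, replicates 4 and 5) it was 14 of 55. The members' median difference was -0.0558 there, beside 0.0108 over all features. Over the mean of both days 6 members had an unadjusted p under 0.05 in limma, all positive after loess, against 6.49% of all features. With median centring 2 members were positive and 16 negative at that p, against 6509 of 30890 features of either sign. After loess 0.00324% of features passed adjustment, none of them a member.

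Levels were then compared between cohorts within each cell type, on per-channel log2 intensities scaled between arrays. The median member level in sprouting neurons was 10.1 ± 0.248 at day 21 and 10.39 ± 0.163 at day 7, and in non-sprouting neurons 10.16 ± 0.154 and 10.29 ± 0.101 (SD, n = 5 each). No member and no feature (0%) passed adjustment in limma for either cell type. Of the members 11 had an unadjusted p under 0.05 in sprouting neurons, 2 higher and 9 lower at day 21, and 5 in non-sprouting neurons, 1 higher and 4 lower; over all features it was 15.7% and 16.1%. With scan date as a random block (correlation 0.536 in sprouting and 0.448 in non-sprouting neurons) 1 member was higher and 0 lower in sprouting neurons, and 1 higher and 1 lower in non-sprouting neurons. Over all features, of either sign, the count also fell, from 4865 to 2374 of 30890 in sprouting and from 4978 to 2862 in non-sprouting neurons. Without day 21 replicates 1 to 5 in turn, the 9 lower in sprouting neurons became 9, 10, 11, 2 and 4. Without day 7 replicates 1 to 5 they became 3, 2, 4, 11 and 10. Over all features, of either sign, the count was 3603 (without day 7 replicate 3) to 6398 (without day 21 replicate 1) of 30890. The 4 lower in non-sprouting neurons became 7, 6, 6, 1 and 3 without day 21 replicates 1 to 5, and 2, 2, 1, 3 and 3 without day 7 replicates 1 to 5. Over all features it was 3673 (without day 7 replicate 3) to 6667 (without day 21 replicate 1) of 30890. In sprouting neurons 20 of 55 members were above 0 for day 21 minus day 7, against 40.2% of features, and in non-sprouting neurons 23 of 55, against 40.8%. The median difference was -0.0444 and -0.0546, beside shifts of all features of -0.0687 and -0.0671, so the members' medians lay close to that of the whole array. With each channel scaled to its 75th percentile and no loess curve, member medians were -0.339 in sprouting and -0.333 in non-sprouting neurons. All features were then at 0.00112 and -0.0446. The parts of scaling and loess in this change were not tested apart. Without day 21 replicate 1, 304 features in sprouting and 597 in non-sprouting neurons passed adjustment, none of them a member.

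Mrps18c, a homologue of bacterial S18, had a higher level in every day 21 animal. In sprouting neurons its levels were 12.56, 12.73, 12.54, 12.52 and 12.65 at day 21 and 12.43, 12.24, 12.21, 12.35 and 12.41 at day 7. In non-sprouting neurons they were 12.57, 12.57, 12.47, 12.45 and 12.71 at day 21 and 12.24, 12.13, 12.29, 12.29 and 12.31 at day 7. The cohorts do not overlap in either cell type, with differences of 0.273 ± 0.097 and 0.3 ± 0.0901 (SE) and adjusted p of 0.238 and 0.167. With the 75th percentile scaling, which also left out the loess curve, the differences were -0.102 and -0.0635. Every day 21 animal was above every day 7 animal for 2 members in sprouting neurons (Mrps18c and Mrps36) and for 1 in non-sprouting neurons (Mrps18c), beside 1.21% and 1.29% of features. Every day 21 animal was below every day 7 animal for Mrpl54 in sprouting and Mrpl23 in non-sprouting neurons, beside 4.2% and 5.13% of features.

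Members with lower values at day 21 tended to be low in the same animals. Mrpl42, specific to mitochondria, had 8.739, 9.014, 9.084, 8.152 and 7.442 in sprouting neurons at day 21, against 9.449, 9.676, 9.285, 8.976 and 8.872 at day 7. Replicates 4 and 5 at day 21, which share a scan date, are the lowest of the 10 animals. The difference was -0.766 ± 0.303 (SE), adjusted p = 0.271, in sprouting and -0.933 ± 0.399, adjusted p = 0.287, in non-sprouting neurons. Mrps16, a homologue of bacterial S16, had -0.856 ± 0.363 and -0.827 ± 0.362, with adjusted p of 0.296 and 0.297, and the same 2 animals lowest. Mrpl17 (-0.622 and -0.687), Mrpl23 (-0.607 and -0.54) and Mrps7 (-0.387 and -0.385) were lower at day 21 in both cell types without passing adjustment. Within the shared scan date the sprouting differences of Mrpl42, Mrpl17 and Mrpl23 were -0.186, -0.034 and -0.125, and that of Mrps16 was 0.125. The only day 21 animal of that date is replicate 1.

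**Figure D5:**
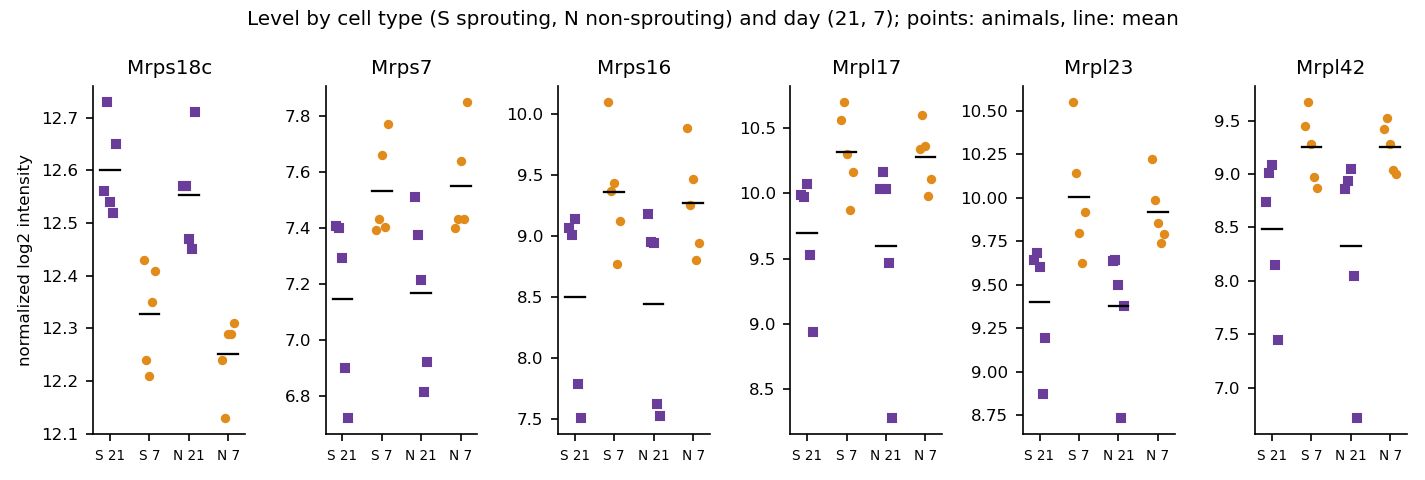
Normalized log2 intensity (vertical axis) in each animal (points; lines are means of 5) for 6 members, in sprouting (S) and non-sprouting (N) neurons at day 21 and day 7. Mrps18c lies higher in every day 21 animal than in any day 7 animal in both cell types, and for the other 5 genes the lowest values are those of day 21 animals.

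Genes that work with the mitochondrial ribosome were set beside it from lists of names; 0 of them passed adjustment at either day. Of 6 mitoribosome proteins with other names, 5 were above 0 at day 21 and 5 at day 7, with medians of 0.0558 and 0.0946. Mrpl58, a peptidyl-tRNA hydrolase built into the large subunit, had 0.105 ± 0.132 at day 21 and 0.218 ± 0.0759 at day 7 (SD, n = 5), above 0 in 4 of 5 and 5 of 5 animals, with an adjusted p of 0.503 at day 7. Aurkaip1 averaged 0.142 ± 0.156 and 0.0299 ± 0.141, and Mrpl57 0.0768 ± 0.134 and 0.174 ± 0.18. Dap3, a GTP-binding protein of the small subunit, was the exception, with -0.0367 ± 0.168 and -0.11 ± 0.0592 and no animal above 0 at day 7. A further 11 Mrpl and Mrps genes named on the array only by accession had 7 of 11 above 0 at day 21 and 8 of 11 at day 7. Those of smallest p were Mrpl46 (-0.127 ± 0.36 and -0.0859 ± 0.122), Mrpl44 (0.059 ± 0.139 and 0.0469 ± 0.0838), Mrpl41 (0.0599 ± 0.108 and 0.117 ± 0.147) and Mrps26 (0.0229 ± 0.215 and -0.121 ± 0.121). Mrpl12, the stalk protein that contacts translation factors, had 0.0268 ± 0.195 and 0.0752 ± 0.198, and among the members Mrps12, of the decoding site, had -0.0436 ± 0.0831 and 0.0381 ± 0.182. With median centring 0 of 6 and 1 of 6 of the other-named proteins were above 0, and 0 of 11 and 1 of 11 of those named by accession.

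For the factors and enzymes around the ribosome the counts were nearer to equal or lower. Of 11 mitochondrial translation factors 3 were above 0 at day 21 and 5 at day 7. Gfm1, the elongation factor for translocation, averaged -0.0729 ± 0.212 at day 21 and -0.168 ± 0.145 at day 7 (SD, n = 5 each). Lrpprc, which stabilises mitochondrial mRNAs, averaged -0.097 ± 0.301 and -0.2 ± 0.184, with no animal above 0 at day 7. Mrrf, the ribosome recycling factor, averaged -0.11 ± 0.151 and 0.0428 ± 0.18, and Mtfmt, which formylates the initiator tRNA, 0.102 ± 0.173 and 0.113 ± 0.139. Assembly and rRNA modification factors had 10 of 22 and 11 of 22 above 0, and those of smallest p went both ways. Mettl17 averaged 0.0758 ± 0.0901 and 0.125 ± 0.106, the rRNA methyltransferase Mrm3 -0.0353 ± 0.118 and -0.124 ± 0.1, Mterf4 -0.13 ± 0.162 and 0.0259 ± 0.0983, and the GTPase Mtg2 -0.141 ± 0.185 and -0.0695 ± 0.172. With median centring every one of these lists had most genes below 0 at both days. Mitochondrial aminoacyl-tRNA synthetases had 8 of 18 and 10 of 18 above 0 with loess, and Wars2, for tryptophan, averaged -0.107 ± 0.0832 and 0.0534 ± 0.0525. Hars2, for histidine, averaged -0.141 ± 0.113 and -0.117 ± 0.18, and Gatb, a subunit of the glutaminyl-tRNA amidotransferase, 0.0197 ± 0.0756 and -0.0842 ± 0.0693. The genes of mitochondrial DNA transcription and replication had 9 of 16 and 8 of 16; Twnk, the replicative helicase, had -0.222 ± 0.25 and 0.141 ± 0.216, Mterf1 0.00273 ± 0.103 and 0.0902 ± 0.103, and Nrf1, the factor whose core motif was searched in the promoters, 0.0874 ± 0.0957 (n = 5) and 0.0314 ± 0.116 (n = 4, 1 animal missing). Each of these pairs gives day 21 and then day 7, with the SD. The spread between animals is as large as most of these means.

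Nuclear genes named as oxidative phosphorylation subunits had 38 of 63 above 0 at day 21 and 35 of 63 at day 7, with medians of 0.0152 and 0.0118. The subunits that the mitochondrial ribosome makes are not in this list. Taken by name, it also holds the assembly factor Ndufaf1 and Cox6c-ps1, named as a pseudogene. The list of cytosolic ribosomal proteins (names starting Rpl or Rps and a digit, or Rplp) had 66 of 76 and 71 of 76, with medians of 0.0726 and 0.138. That name rule also took in the kinases Rps6ka1, Rps6ka5, Rps6kb1, Rps6kb2, Rps6kc1 and Rps6kl1, which are not ribosomal proteins. In day 21 replicate 5 the median of all mitochondrial members was 0.0293 and the cytosolic median -0.123, and in day 7 replicate 1 they were 0.0621 and 0.526. With median centring 2 of 63 and 4 of 63 oxidative phosphorylation genes and 6 of 76 and 34 of 76 genes of the cytosolic list were above 0. Whether these lists differ from the mitochondrial ribosomal proteins was not tested.

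Markers of other cells varied between the same pools. Blood cell markers were above 0 in 2 of 5 at day 21 and 5 of 5 at day 7, with a median of 0.657 in day 7 replicate 1, and astrocyte markers were above 0 in 7 of 7 at day 21 (0.0691 to 0.222 by animal) and 2 of 7 at day 7. Microglia and macrophage markers were above 0 in 3 of 10 at day 21, with a median below 0 in all 5 animals (-0.0746 to -0.0168), and in 7 of 10 at day 7 (-0.241 to 0.203 by animal). Neuron markers were above 0 in 4 of 9 at either day, with a median of -0.63 in day 21 replicate 5. With median centring the counts above 0 at day 21 and day 7 were 3 of 5 and 4 of 5 for blood cells, 1 of 7 and 1 of 7 for astrocytes, 2 of 10 and 4 of 10 for microglia and macrophages, and 1 of 9 and 1 of 9 for neurons. Without day 21 replicate 5 the members above 0 at day 21 were 36 of 55, and without day 7 replicate 1 those at day 7 were 34 of 55. The part of these markers in the members' ratios was not tested.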

How the data were processed

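Per the labels' protocols, about 300 neurons per cell type were captured, and their RNA was amplified over 2 rounds and hybridised to 2-colour Agilent arrays. The deposited scanner files give red and green intensities of each spot and a log10 ratio of red over green, made with Feature Extraction 9.1.3.1 per the file headers. The authors' deposited table holds log2 ratios of red over green: all 20 columns matched their own array best (r of 0.9 to 1, column medians 0.00338 to 0.0153), and its centring and normalization are not given in the sources used here. It was used as an alternative only, and 20 further columns were not used.

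Intensities were background-corrected (normexp, offset 50), loess-normalized array by array (controls weighted 0), and outlier spots were set to missing, saturated ones kept. Ratios were turned to sprouting over non-sprouting, spots of a probe were averaged, and the 2 arrays of an animal were averaged to 1 value. To enter, a probe had to exceed background clearly in 1 cell type in 3 or more animals of the same day, in each of their arrays. Tests used limma 3.58.1 in R 4.3.3 (lmFit, eBayes; statmod 1.5.0) over all features, with Benjamini-Hochberg adjusted p under 0.05 as the call; the unit of replication is the animal, and the number of arrays limits the precision. Levels are per-channel log2 intensities after loess and Aquantile scaling. The fits were tested on simulated data. Gene names come from the files, or by accession from the RefSeq table of GRCr8, which also gave the promoter sequences.

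Every member was counted. Members named are the 5 large- and 4 small-subunit genes of smallest p for each ratio contrast, the 3 of each subunit for each level contrast, those of 1 sign in all 10 animals, Mrpl12 and Mrps12, and from each other list the 2 genes of smallest p at each day; members named in addition (those of 1 sign in 1 cohort, non-overlapping in level or with an outlying animal) and some list genes were singled out after their values were seen. The members and lists were chosen with earlier results of these data known. The replicate numbers of the days belong to different animals; same-numbered animals correlated at -0.195 to 0.036, and 0 of 5 correlated best with its own number. Scan dates numbered 5, of which 1 held both cohorts. Alternatives varied background correction, normalization, filter, probe choice, saturated spots, array averaging, scan date and single animals.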

Additional observations from a re-analysis of the deposited data

Results flagged for a closer look

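Of 134 groups of 5 animals examined, 8 had 1 animal far from the other 4 by Dixon's criterion (0.71 of the range), and chance gives about 1 in 20. At day 21, replicate 5 stood apart for Mrpl3 at 1.05 (the others -0.453 to -0.0431), for Mrpl42 at 0.727 (the others -0.118 to 0.104) and for Mrpl54 at -0.364 (the others -0.0608 to -0.0162). Replicate 4 stood apart for Mrps33 at 0.202 (the others 0.0359 to 0.0721). At day 7, replicate 2 stood apart for Mrps12 at 0.349 (the others -0.094 to 0.0302) and for Mrps30 at 0.361 (the others -0.103 to 0.000157). Replicate 1 stood apart for Mrpl22 at 0.284 (the others 0.0981 to 0.144) and replicate 3 for Mrpl11 at -0.0791 (the others 0.119 to 0.155). Day 21 replicate 5 had the widest spread over members (SD 0.322) and the lowest neuron marker median (-0.63), and day 7 replicate 2 the lowest oligodendrocyte marker median (-0.737); their part in these values was not tested. In 0 members did all animals of one day take one sign and all of the other day the opposite sign.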

How the results depend on the processing

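No member was called in limma under any alternative run for any contrast. Median centring without loess moved the most values: 7 members above 0 at day 21 and 6 at day 7, large-subunit medians of -0.179 (day 21) and -0.082 (day 7), small-subunit medians of -0.17 and -0.121, and 8 animals with the small-subunit homologue median above the specific one. Under it the ratios below took the opposite sign: at day 21 Mrpl18 -0.0972, Mrpl36 -0.0498, Mrpl42 -0.00119 and Mrps33 -0.143; at day 7 Mrpl18 -0.0229, Mrpl16 -0.0118, Mrps33 -0.0426, Mrps17 -0.058 and Mrps18c -0.108; in the mean of both days Mrpl18 -0.06, Mrpl16 -0.0586, Mrpl30 -0.0607, Mrps33 -0.0928 and Mrps17 -0.0887. The cause was not tested. With Feature Extraction's ratio the differences between days of Mrpl10 (0.185) and Mrps18b (0.00638) reversed, and with the mean over probes Mrps27 had -0.00155 at day 21 and -0.00265 for the difference. Within the shared scan date, and with scan date as a fixed block, the Mrps14 difference was -0.00276, and within that date the Mrps16 level difference was 0.125 (sprouting) and 0.307 (non-sprouting). With 75th percentile scaling and no loess curve the Mrps18c level differences were -0.102 and -0.0635. The cause of these reversals was not tested either. Leaving out each animal in turn gave members above 0 of 28 to 39 at day 21 and 34 to 45 at day 7, large-subunit medians of 0.00492 to 0.0466 and 0.0386 to 0.0682, and small-subunit medians of 0.0305 to 0.069 and 0.00582 to 0.0489. The Mrpl18 ratio ranged from 0.101 to 0.146 at day 21 and from 0.151 to 0.169 at day 7, and its adjusted p for the mean of both days from 0.1 to 0.918 over all alternatives. Taking the 20 arrays singly called 1 feature at day 21, 12 at day 7, 1 for the difference and 11 for the mean, with 0 members.

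With the replicate number as a block, 0 members were called for the ratio difference and for both levels, and the Mrpl23 level difference in sprouting neurons (-0.607) had an adjusted p of 0.336 (0.156 to 0.961 over its alternatives); the numbers do not pair animals, and no call changed.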
